A study of Mus musculus with 8 samples.

Results

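The genes described here are 10 members of the Notch pathway, chosen by name from the 28014 genes counted: the receptors Notch1 and Notch4, the ligands Dll4, Jag1 and Jag2, the target genes Hey1, Hey2, Heyl and Hes1, and Rbpj, which encodes the DNA-binding partner of the cleaved receptor. They were read in single CD31+ cells sorted from the aorta-gonad-mesonephros region (AGM) of mouse embryos on embryonic day 10.5, where arterial endothelium gives rise to the earliest blood stem cells. The method, CITE-seq, reads each cell's RNA as counts of unique molecular identifiers (UMIs) together with antibody tags for some surface proteins. There were 5 libraries of WT embryos (labelled C57BL/6) and 3 of Meis1-knockout embryos (strain label Meis1-flox/VE-Cre), each made from a pool of 2 to 5 embryos. In the Meis1-knockout embryos both Meis1 alleles carry loxP sites around exon 8 and Cre is driven by the VE-Cadherin promoter, so that deletion is limited to cells with a history of that promoter's activity. In the crosses for the knockout, embryos without Cre are called WT in the study. Cell names of WT 5 begin with a prefix (Mf) that those of WT 1 to 4 do not have, its labels give it the same strain and genotype as the others, and whether its embryos came from another cross is not given in the sources used here.

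The deposited annotation divides 15168 cells, 8423 of them WT and 6745 Meis1-knockout, into 10 clusters: pre-hemogenic endothelium (pre-HE), arterial endothelium (aEC), cells undergoing the endothelial-to-hematopoietic transition (EHT), erythro-myeloid progenitors (EMP), megakaryocytes, Myeloid cells and 4 venous clusters (vEC_1 to vEC_4, together vEC). Libraries held 20484881 to 79429129 UMIs, and the median cell held 26572 to 28553 UMIs in WT 1 to 4 but 12720.5 in WT 5 and 9611.5 to 14895 in the Meis1-knockout libraries. Of the WT libraries, WT 5 alone was thus as shallow as the Meis1-knockout libraries. Pre-HE was the smallest cluster, with 11 to 87 cells per WT library and 15 to 33 per Meis1-knockout library. In all, 33 cell barcodes occurred in more than 1 library. The cluster names were checked against markers. The sum of 5 arterial genes (Gja5, Gja4, Efnb2, Sox17 and Cxcr4) was highest in pre-HE, at 2440 to 3235 counts per 1000000 UMIs (CPM) in WT, against 326 to 551 CPM in aEC and 113 to 143 CPM in vEC. Of these, Gja5 had a WT mean of only 2.17 CPM in aEC, against 500.5 CPM in pre-HE. The venous genes Nr2f2, Ephb4, Nrp2 and Aplnr had WT means of 37.5, 29.2, 79.8 and 202 CPM in aEC, each below every vEC cluster. For Aplnr the vEC means were 240.5 to 267.5 CPM, so it set aEC little apart. In pre-HE the venous genes stood at 11.0, 49.4, 13.3 and 12.1 CPM. The 5 EHT genes (Runx1, Gfi1, Spi1, Myb and Ptprc) summed to 558 to 708 CPM in EHT and to at most 28.0 CPM in pre-HE. Among these cells Meis1 itself, read outside the deleted exon by 3′ counting, stood at 68.0 to 85.8 CPM in WT and 55.5 to 70.9 CPM in Meis1-knockout EHT cells, which is no direct check of the deletion.

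Notch receptors are cut when a ligand on a neighbouring cell binds them, and the freed intracellular part joins RBPJ on DNA and switches on target genes, of which the HES and HEY repressors are the best known. In embryonic vessels the pathway is known for arterial identity, with DLL4 as the main endothelial ligand, and it is required for the emergence of blood stem cells from the aorta. Levels below are CPM, the UMIs of a gene over all UMIs of the cells of 1 cluster in 1 library, and are compared within a gene only.

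RefSeq promoter windows of mouse build GRCm38.p6 (mm10), from 250 bases before to 50 bases after a start of transcription, could be matched for 7 of the 10 genes, Notch1, Notch4, Dll4, Jag1, Jag2, Hey2 and Rbpj. They were searched on both strands for the RBPJ motif CGTGGGAA, which holds the shorter form GTGGGAA. Among 32851 promoter windows 0.734% hold the longer and 6.38% the shorter form. Of the 7 genes, Hey2 alone holds either. It is also the only target gene among the 7, as no window was matched for Hey1, Heyl and Hes1. The Hey2 window is shown because this target has the steepest pattern below, and the Dll4 window because Dll4 is the ligand that most clearly follows it. The Hey2 window lies at chr10:30842734-30843033 on the minus strand and the Dll4 window at chr2:119325534-119325833 on the plus strand, both printed 5′ to 3′ along the gene, with every match to CGTGGGAA or its reverse complement in capitals.
Hey2: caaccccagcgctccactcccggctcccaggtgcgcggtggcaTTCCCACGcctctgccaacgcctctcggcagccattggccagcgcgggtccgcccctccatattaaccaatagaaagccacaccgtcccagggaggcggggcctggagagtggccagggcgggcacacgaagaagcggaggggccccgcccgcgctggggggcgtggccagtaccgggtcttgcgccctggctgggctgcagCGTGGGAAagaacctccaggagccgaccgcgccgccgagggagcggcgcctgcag
Dll4: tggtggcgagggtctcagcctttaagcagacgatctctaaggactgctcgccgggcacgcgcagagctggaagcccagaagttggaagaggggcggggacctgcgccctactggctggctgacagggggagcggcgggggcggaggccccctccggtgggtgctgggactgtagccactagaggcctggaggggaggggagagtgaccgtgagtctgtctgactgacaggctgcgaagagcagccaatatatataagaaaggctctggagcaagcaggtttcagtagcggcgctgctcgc
In Hey2 the motif occurs once as printed, at bases -5 to 2 with the start of transcription as base 0, and once as its reverse complement, TTCCCACG, at bases -207 to -200. A match is a description of the letters and not a site shown to be bound, and the Dll4 window without capitals says only that these letters are not in it.

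Across the 10 clusters, WT levels of 8 of the 10 genes were highest in pre-HE, those of Hes1 in aEC and those of Rbpj in Myeloid cells, as the plot of levels per library shows. Among the 8 is Heyl, whose 6 UMIs in pre-HE, from 2 of the 5 libraries, are too few for an order to be read, which leaves 7 with counts behind the order. The share of all genes with their highest level in pre-HE is not given here, so the count is a description only. The general endothelial genes Cdh5, Pecam1, Kdr, Eng and Tek also had their highest WT means in pre-HE. The receptors are given first. Notch1 (chromosome 2, 26457902 to 26503822 in GRCm38.p6), the receptor used most widely in embryonic endothelium and blood, stood at 184, 257, 71.3, 159 and 200 CPM in pre-HE of WT 1 to 5 and at 83.8, 57.5, 64.0, 76.7 and 66.9 CPM in aEC. Its lowest pre-HE library, WT 3 with 11 cells, lay inside the aEC range. In EHT Notch1 fell to 29.4, 26.9, 26.8, 34.8 and 40.2 CPM, below every aEC and vEC value. The 4 vEC clusters, at mean levels of 57.4 to 68.2 CPM, overlapped with each other and with aEC, so that among endothelial clusters Notch1 separated pre-HE from the rest and little else. Myeloid cells, EMP and megakaryocytes held mean levels of 21.3, 13.6 and 9.77 CPM.

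**Figure D1:**
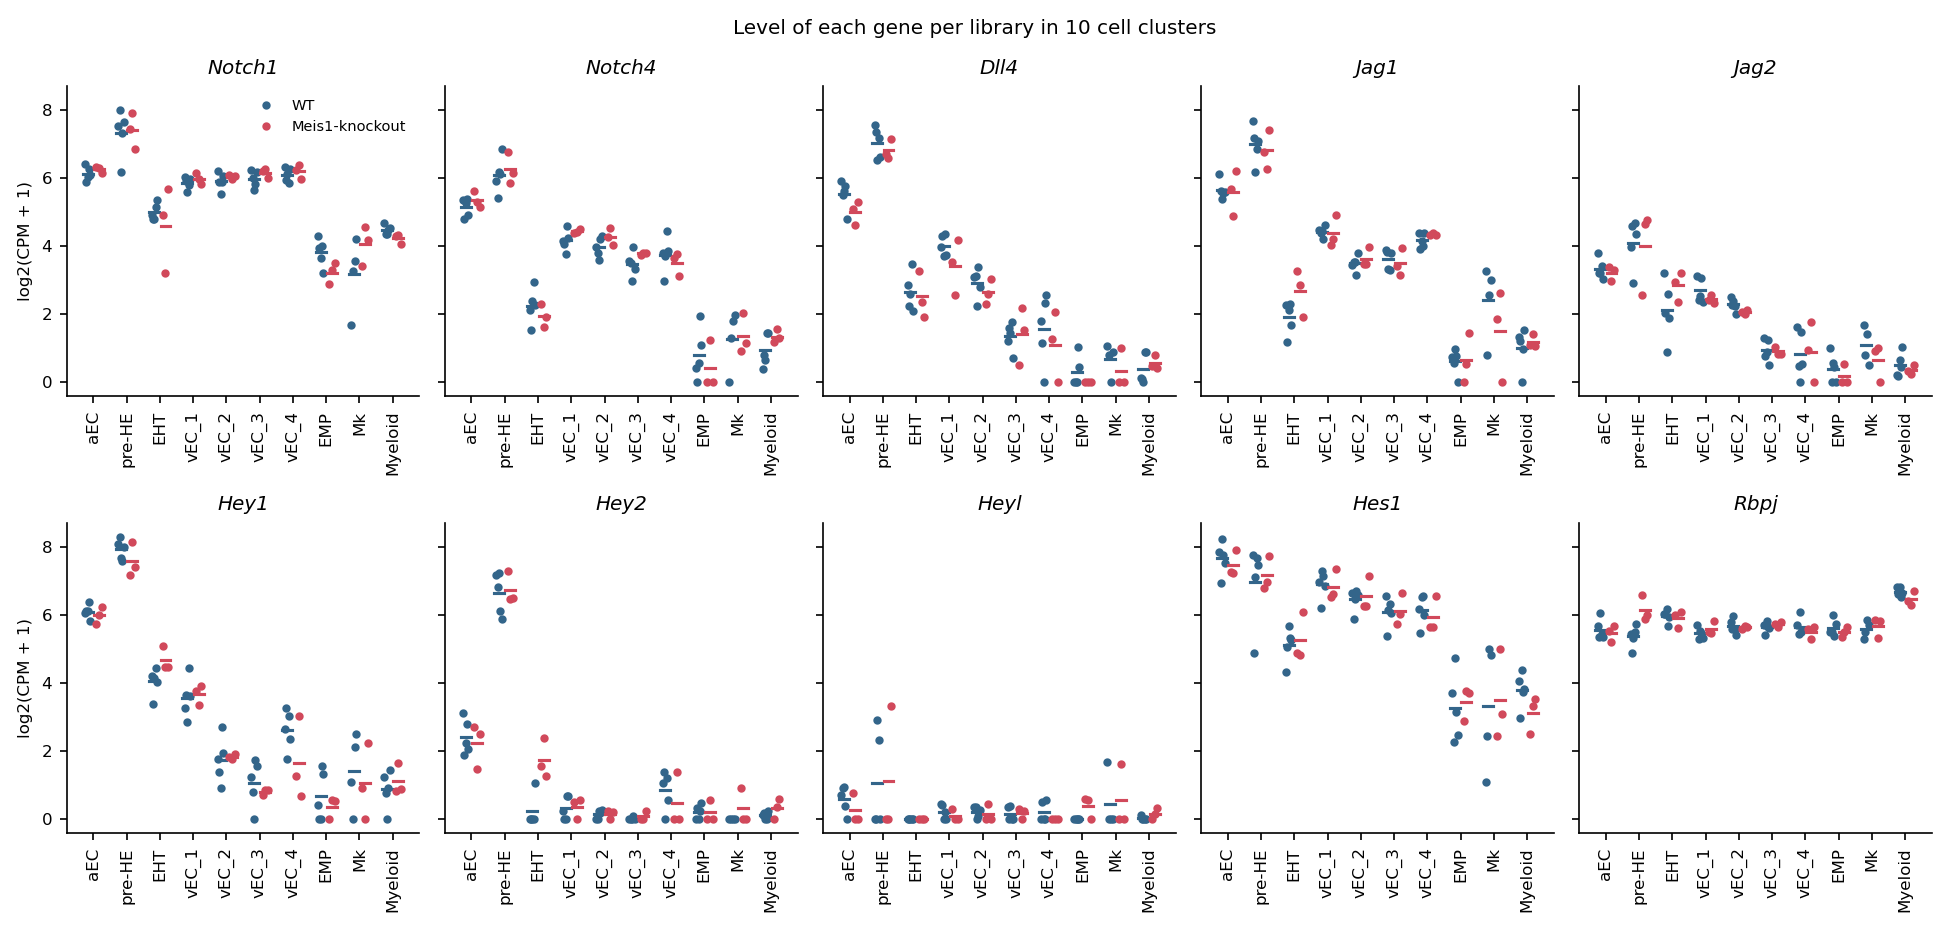
Level of each of the 10 genes as log2(CPM + 1) in the 10 clusters, 1 point per library with at least 10 cells, WT in blue and Meis1-knockout in red, bars at the mean of the plotted values (Mk, megakaryocytes). Points of 8 genes, Heyl with 6 UMIs included, are highest in pre-HE, Hes1 is highest in aEC, and Rbpj is at a like level in most clusters and highest in Myeloid cells.

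Notch4 (chromosome 17, 34564286 to 34588543), a receptor largely restricted to endothelium, showed a steeper order. It stood at 59.0, 42.0, 71.3, 68.0 and 116 CPM in pre-HE of WT 1 to 5, at 40.0, 27.01, 37.5, 40.6 and 29.2 CPM in aEC, and at 3.38, 1.88, 4.18, 6.65 and 3.80 CPM in EHT. The ranges of pre-HE and aEC did not overlap, nor did those of aEC and each vEC cluster (mean levels of 10.35 to 17.2 CPM), nor that of the lowest vEC cluster, vEC_3, and EHT. Blood clusters other than EHT held 0.953 to 1.71 CPM on average.

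The ligands shared this order. Dll4 (chromosome 2, 119325784 to 119335666) stood at 186, 163, 90.8, 145 and 96.6 CPM in pre-HE of WT 1 to 5, at 59.2, 44.3, 48.5, 53.3 and 26.95 CPM in aEC, and at 6.27, 3.76, 5.02, 10.2 and 3.26 CPM in EHT. None of these 3 ranges overlapped. Jag1 (chromosome 2, 137081451 to 137116520), a ligand of the Jagged type, stood at 205, 145, 71.3, 115 and 135 CPM in pre-HE, at 68.7, 48.2, 41.1, 46.0 and 47.6 CPM in aEC, and at 3.86, 1.25, 3.34, 3.91 and 2.17 CPM in EHT. Here too the 3 ranges were apart, although the lowest pre-HE value, again WT 3, was just above the highest aEC value. The other Jagged ligand, Jag2 (chromosome 12, 112907803 to 112929812), was read by 48 UMIs in all WT pre-HE cells together, with a mean of 17.7 ± 7.34 CPM (SD, n = 5) there, 9.24 ± 2.23 CPM in aEC and 3.99 ± 2.79 CPM in EHT, and its ranges overlapped between neighbours in this order.

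The targets differed more from one another. Hey1 (chromosome 3, 8663359 to 8667038), a repressor downstream of Notch in arteries, stood at 271, 313, 201, 191 and 251.1 CPM in pre-HE of WT 1 to 5, at 65.2, 67.8, 67.7, 81.7 and 55.3 CPM in aEC, and at 17.4, 9.40, 16.7, 20.7 and 15.2 CPM in EHT. The lowest pre-HE library was above the highest aEC library, and the lowest aEC library above the highest EHT library. Hey2 (chromosome 10, 30832359 to 30842783), the paralog of Hey1 whose promoter window is printed above, stood at 142, 112, 149, 68.0 and 57.9 CPM in pre-HE and at 7.56, 2.64, 3.66, 5.92 and 3.15 CPM in aEC. In EHT it was read by 2 UMIs of 9266568 in all WT libraries, both in WT 5, and in every remaining cluster its mean was below 1 CPM. Pre-HE was thus the only cluster in which Hey2 was above 10 CPM in any WT library.

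Hes1 (chromosome 16, 30065357 to 30067796), a repressor that answers Notch and other signals, had another order. It stood at 230, 120, 296, 214 and 183 CPM in aEC of WT 1 to 5, at 216, 28.0, 136, 202 and 174 CPM in pre-HE, and at 18.8, 31.9, 49.3, 38.3 and 37.5 CPM in EHT. The low pre-HE value of WT 2 rests on 18 cells, and aEC and pre-HE overlapped, while vEC_1 with 121 ± 31.1 CPM (SD, n = 5) came next. Heyl (chromosome 4, 123233556 to 123249870), another HEY-type gene, was close to absent, with 6 UMIs in WT pre-HE (WT 3 and WT 4), 8 in aEC and 0 in EHT, where a count of 0 allows up to 0.324 CPM. Rbpj (chromosome 5, 53555779 to 53657445) was present in all clusters, with means of 40.9 CPM in pre-HE, 47.1 CPM in aEC, 61.4 CPM in EHT, 43.1 to 50.02 CPM in the vEC clusters and 101.5 CPM in Myeloid cells, and of its neighbours in that order only Myeloid and EHT had ranges that did not overlap.

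For Hey1, Dll4 and Hey2 the order of pre-HE, aEC and EHT was also seen in shares of cells with at least 1 UMI. Each cell was first thinned to 5000 UMIs, which left out no WT pre-HE cell, 2 WT aEC cells and 1 WT EHT cell. For Hes1 the WT share was 48.7% ± 7.52 in aEC, 38.4% ± 8.11 in vEC_1 and 34.6% ± 16.7 in pre-HE (SD, n = 5). Its mean CPM, by contrast, was higher in pre-HE than in vEC_1. Hey1 was read in 68.9% ± 11.6 of WT pre-HE cells (SD, n = 5), 25.8% ± 2.78 of aEC and 7.85% ± 1.11 of EHT, against 0.465% ± 0.506 of Myeloid cells, which here stand for the background of a cluster without the gene. Dll4 was read in 46.8% ± 12.5, 19.0% ± 5.21, 4.25% ± 3.46 and 0.212% ± 0.291 of the same clusters. Hey2 was read in 39.7% ± 18.1 of pre-HE, 2.49% ± 0.907 of aEC and 0.170% ± 0.379 of EHT, the last from 1 of 325 cells, beside 1 of 390 EMP cells. Without thinning, at a median of 12884 UMIs in pre-HE, 18343 in aEC, 25591.5 in EHT and 39173 in Myeloid cells, the shares for Hey1 were 88.6%, 51.4%, 21.9% and 2.06%. The largest share for Notch4 was 31.5% ± 12.7 in pre-HE, against 0.896% ± 2.00 in EHT and 0.31% ± 0.322 in Myeloid cells.

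The step from aEC to pre-HE was tested in the 5 WT libraries, blocked by library. Receptors, ligands and HEY targets rose, Hes1 fell, and Rbpj did not pass the test. In WT 9 of the 10 genes passed the filter on low counts (Heyl did not), and 8 were called at an adjusted p under 0.1 (edgeR, quasi-likelihood test, Benjamini-Hochberg adjustment), 7 of them higher in pre-HE, where 42.1% of all genes tested were called and 21.1% were called higher. Hey2 had the largest log2 fold change, 4.13 (SE 0.23, adjusted p 3.035e-19), higher in 5 of 5 libraries. Hey1 followed with 1.70 (SE 0.14, adjusted p 5.41e-14), Dll4 with 1.48 (SE 0.14, adjusted p 2.21e-11) and Jag1 with 1.33 (SE 0.14, adjusted p 2.12e-10). Notch1 rose by 1.19 (SE 0.15, adjusted p 1.86e-08) and Notch4 by 0.79 (SE 0.18, adjusted p 0.000452), each in 5 of 5 libraries. Jag2 rose by 0.93 (SE 0.30, adjusted p 0.0135) in 4 of 5 libraries, but without WT 4, the library with most pre-HE cells, its value was 0.56 with an adjusted p of 0.333, and DESeq2 gave an adjusted p of 0.129. Hes1 fell by 0.45 on the log2 scale (SE 0.15, adjusted p 0.0122) in 5 of 5 libraries, a call that was lost without the library block (adjusted p 0.243) and with sums of at least 20 cells, which leave WT 1 and WT 4 (-0.18, adjusted p 0.366). For Rbpj the value was -0.20 (SE 0.18, adjusted p 0.417).

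Clusters were drawn from the same RNA counts, so the p-values do not allow for that choice. In pre-HE the summed level of 5 general endothelial genes (Cdh5, Pecam1, Kdr, Eng and Tek) was 2337 to 2707 CPM in WT against 1126 to 1388 CPM in aEC, and 5 of 5 arterial genes were above 5 CPM, their sum being above every aEC value, while the median cell held fewer UMIs, and the part of these in the Notch gene differences was not tested. Of 7 mural and mesenchymal genes, 0 had a mean over the WT libraries of 5 CPM or more in pre-HE, with sums of 0 to 12.97 CPM per library, where 1 UMI can be worth more than 5 CPM, and Pdgfrb, Cspg4 and Des at 0.

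The same step in the 3 Meis1-knockout libraries gave 6 calls among 8 genes that passed the filter (Jag2 and Heyl did not), all 6 higher in pre-HE, against 21.8% of all genes called and 11.2% called higher. Log2 fold changes were 4.76 (SE 0.37) for Hey2, 1.78 (SE 0.26) for Dll4, 1.63 (SE 0.22) for Hey1, 1.19 (SE 0.21) for Notch1, 1.17 (SE 0.25) for Jag1 and 0.87 (SE 0.28) for Notch4, each higher in 3 of 3 libraries. Hes1, at -0.36 (SE 0.19), and Rbpj, at 0.69 (SE 0.29), had adjusted p-values of 0.214 and 0.105. Without Meis1-knockout 1 the Notch4 value was 0.68 with an adjusted p of 0.374, and without Meis1-knockout 3 the Rbpj value was 0.81 with an adjusted p of 0.0795. The difference of the step between genotypes was tested as an interaction over all 8 libraries, and 0 of 9 genes passed, with 0.0527% of all genes called. Rbpj had the lowest unadjusted p among them, 0.0152 for a difference of 0.855 (SE 0.35) between the steps, and an adjusted p of 0.893, where 465 of all genes had an unadjusted p under 0.05. DESeq2 also called 0 of them.

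**Figure D2:**
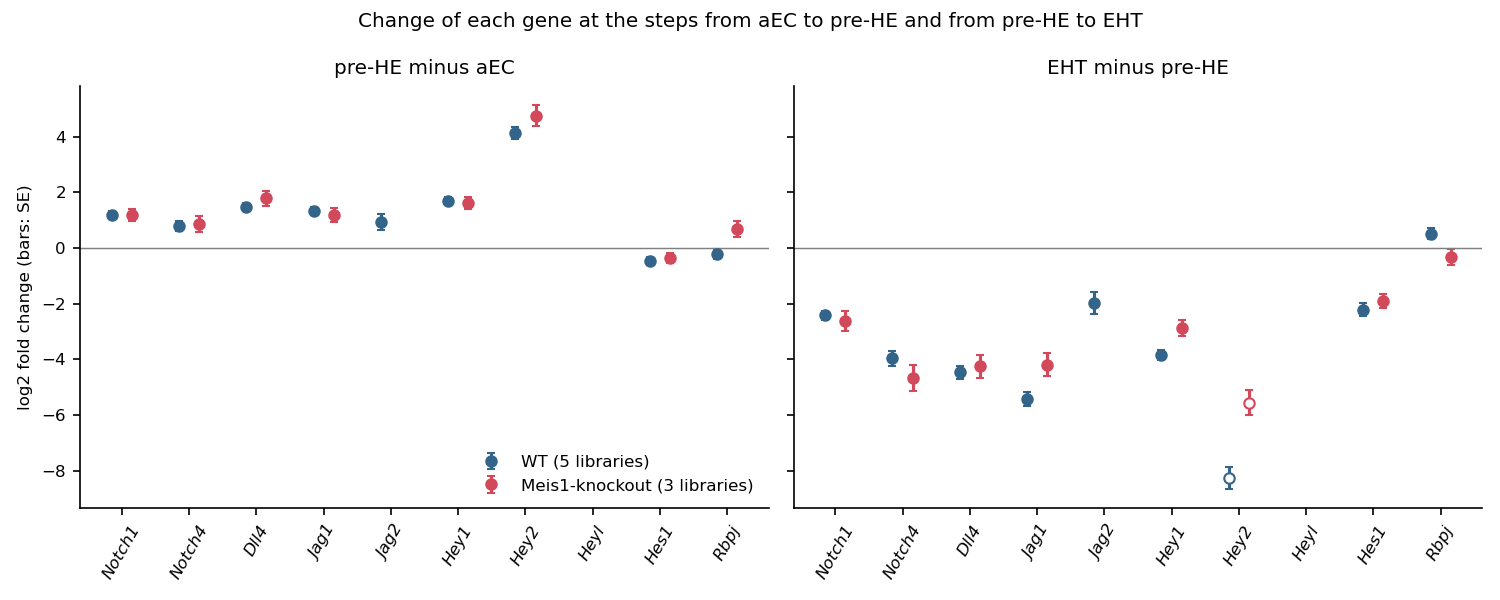
Log2 fold change with its standard error for each gene at the step from aEC to pre-HE (left) and from pre-HE to EHT (right), in 5 WT libraries (blue) and 3 Meis1-knockout libraries (red). Genes that did not pass the filter have no point, and open points for Hey2 rest on 2 WT and 5 Meis1-knockout UMIs in EHT. Receptors, ligands, Hey1 and Hey2 lie above 0 on the left and below 0 on the right.

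From pre-HE to EHT, the step at which cells take on Runx1 and blood genes, all but 1 of the tested Notch genes fell in WT. All 9 genes that passed the filter were called, 8 lower and Rbpj higher in EHT, where 61.6% of all genes tested were called, 30% lower and 31.6% higher. Jag1 fell by 5.41 on the log2 scale (SE 0.25, adjusted p 1.54e-18) and Dll4 by 4.46 (SE 0.22, adjusted p 9.005e-18), both in 5 of 5 libraries. Notch4 fell by 3.96 (SE 0.27, adjusted p 3.38e-14) and Hey1 by 3.83 (SE 0.18, adjusted p 1.17e-18). The decreases of Notch1, by 2.41 (SE 0.17), Hes1, by 2.21 (SE 0.23), and Jag2, by 1.98 (SE 0.40), were smaller, and for Hes1 the direction held in 4 of 5 libraries, WT 2 being the exception.

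For Hey2 the pooled WT counts were 219 of 2331096 UMIs in pre-HE and 2 of 9266568 in EHT, a ratio of CPM of 435 with an exact 95% interval of 119 to 3617 that covers counting error only. In the Meis1-knockout the counts were 59 of 524071 and 5 of 2233890, a ratio of 50.3 with an interval of 20.4 to 161. Rbpj rose by 0.51 in WT (SE 0.19, adjusted p 0.0232) in 5 of 5 libraries, a call lost with sums of at least 20 cells (0.40, adjusted p 0.184). The 5 general endothelial genes fell together with the Notch genes, to 255 to 501 CPM in WT EHT, and the 5 EHT genes were at 558 to 708 CPM, and the part of this change of cell state in each gene's difference was not tested. Of Scrublet doublet calls, 15 were among EHT and 0 among pre-HE cells, and with these cells left out 8 genes were called at this step. No gene is recorded as tested and losing the threshold in that setting.

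In the Meis1-knockout 7 of 8 tested genes were called at this step, all lower in EHT, against 50.2% of all genes called and 24.1% called lower. Log2 fold changes were -4.67 (SE 0.46) for Notch4, -4.25 (SE 0.40) for Dll4, -4.19 (SE 0.41) for Jag1, -2.85 (SE 0.29) for Hey1, -2.60 (SE 0.355) for Notch1 and -1.90 (SE 0.26) for Hes1. Rbpj, at -0.33 (SE 0.29), did not pass the test (adjusted p 0.385). Of 9 genes tested for a difference of the step between genotypes, 0 were called by edgeR or DESeq2, with 0.0374% of all genes called. Hey1, Hey2, Rbpj and Jag1 were the 4 with an unadjusted p under 0.05, of 353 among all 8025 genes tested, and each had an adjusted p of 1.0. The Hey1 decrease was smaller in the Meis1-knockout by 1.00 (SE 0.36), with an unadjusted p of 0.00825.

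Arterial and venous endothelium were compared next. Notch1, Notch4, Dll4 and Jag1 belong to the arterial score by which the study named its clusters, so their values are a description with no test. In WT the log2 fold change of aEC over vEC was 2.68 (SE 0.12) for Dll4, 1.89 (SE 0.09) for Jag1, 1.29 (SE 0.10) for Notch4 and 0.24 (SE 0.07) for Notch1, the last higher in aEC in 3 of 5 libraries only. Of the 6 other genes 5 passed the filter and 4 were called, all higher in aEC, against 59.7% of all genes called, 29.2% higher and 30.5% lower. Hey2 had a value of 4.28 (SE 0.31, adjusted p 2.5e-11), Hey1 of 3.70 (SE 0.14, adjusted p 4.55e-17), Jag2 of 1.53 (SE 0.16, adjusted p 9.02e-09) and Hes1 of 1.22 (SE 0.06, adjusted p 2.045e-14), each in 5 of 5 libraries. Rbpj did not pass, at -0.03 (SE 0.07, adjusted p 0.757).

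Values differed between the venous clusters, which were not tested against each other, and for Hey1, Jag2 and Hes1 the log2 fold change of aEC was smallest over vEC_1. Dll4 stood at 12.2 to 19.3 CPM in vEC_1 of WT 1 to 5, at 3.72 to 9.35 CPM in vEC_2, at 0.634 to 2.43 CPM in vEC_3 and at 0 to 4.94 CPM in vEC_4. Its range in vEC_1 lay below that in aEC and above those of the other vEC clusters. The log2 fold change of aEC for Hey1 was 2.40 (SE 0.12) over vEC_1, 4.51 (SE 0.16) over vEC_2, 5.61 (SE 0.18) over vEC_3 and 3.60 (SE 0.14) over vEC_4. For Jag2 these values were 0.62 (SE 0.16), 1.32 (SE 0.17), 3.20 (SE 0.23) and 2.98 (SE 0.31), and for Hes1 0.75 (SE 0.05), 1.23 (SE 0.08), 1.63 (SE 0.08) and 1.57 (SE 0.08), all with adjusted p-values of 0.00264 or less by edgeR. Calls among all genes made up 49.2%, 61.5%, 65.4% and 53.5% in the 4 comparisons. Jag1 had a different order, with 17.4 to 23.6 CPM in vEC_1, 14.1 to 19.9 CPM in vEC_4, 8.87 to 13.8 CPM in vEC_3 and 7.91 to 12.8 CPM in vEC_2. The 5 arterial marker genes also had their highest vEC sum in vEC_1, 150 to 218 CPM, and their lowest in vEC_3, 69.0 to 91.6 CPM.

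**Figure D3:**
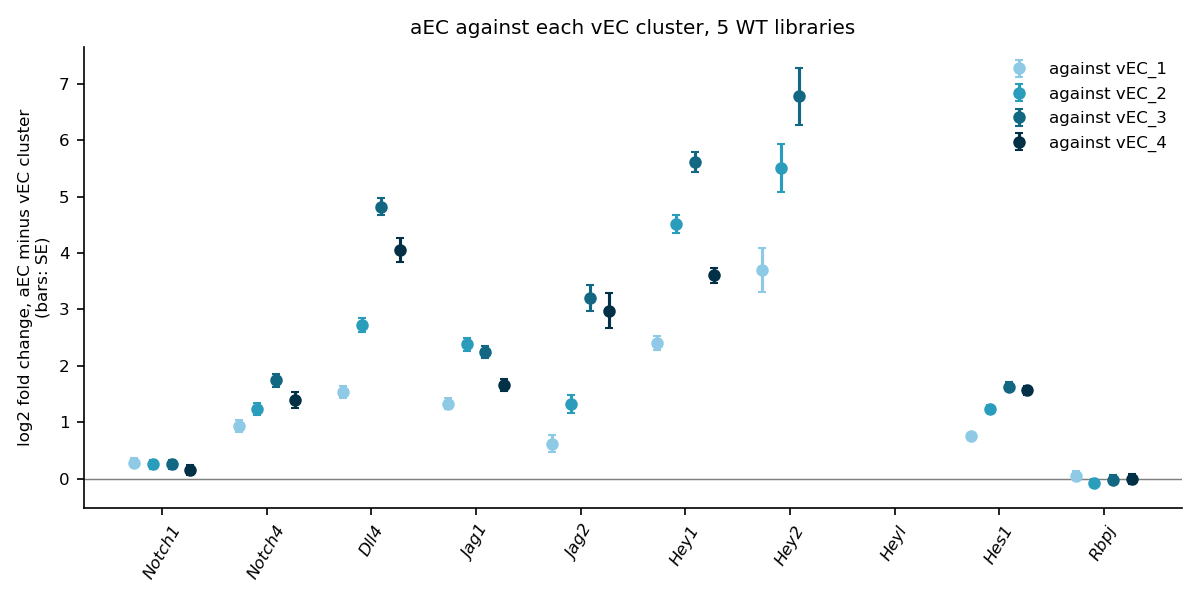
Log2 fold change of aEC over each of the 4 vEC clusters, with its standard error, for 5 WT libraries with the library as block. Hey2 over vEC_4 and Heyl did not pass the filter on low counts. Notch1 and Rbpj lie near 0 for every cluster, and Dll4, Jag2 and Hey1 are furthest from 0 over vEC_3.

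In the Meis1-knockout libraries the same 4 of 5 tested genes were called between aEC and vEC, all higher in aEC, against 45.1% of all genes called. Values were 4.37 (SE 0.67) for Hey2, 3.77 (SE 0.14) for Hey1, 1.65 (SE 0.31) for Jag2 and 1.03 (SE 0.07) for Hes1. The comparison of these differences between genotypes was not tested.

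Genotype was then compared within each cell type, 5 WT against 3 Meis1-knockout libraries. In megakaryocytes it was 4 WT against 3, as WT 3 held only 5 of these cells. Of the 10 genes, 9 passed the filter in aEC, 8 in pre-HE, 4 in EHT, 8 in vEC, 3 in EMP, 3 in megakaryocytes and 6 in Myeloid cells, and 0 were called in any of them by edgeR or by DESeq2. Calls among all genes made up 0% in aEC, 0.489% in pre-HE, 0.127% in EHT, 0.0164% in vEC, 4.74% in EMP, 0.206% in megakaryocytes and 3.26% in Myeloid cells. An unadjusted p under 0.05 was found for 1 gene each in aEC (Dll4), pre-HE (Rbpj), EHT (Hey1) and EMP (Notch1), which are named here for that reason. Over all genes tested it was found for 1000 of 9540 in aEC, 263 of 3682 in pre-HE, 823 of 8670 in EHT and 1588 of 9172 in EMP. Notch4 in vEC stood at 13.8, 12.3, 10.5, 18.6 and 15.2 CPM in WT libraries and at 16.3, 18.2 and 15.3 CPM in Meis1-knockout libraries, overlapping groups with a log2 fold change of 0.25 (SE 0.16, adjusted p 0.428). With replicates 1 to 3 of each genotype and the replicate number as a block it was called (0.49, adjusted p 0.0131), and over the same 6 libraries without the block as well (0.48, adjusted p 0.0299). These fits leave out WT 4 and WT 5, and the share of all genes called in them is not given here.

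Dll4 in aEC had WT levels of 59.2, 44.3, 48.5, 53.3 and 26.95 CPM, and Meis1-knockout levels of 33.3, 23.7 and 37.9 CPM. All 3 Meis1-knockout values were below those of the deeply sequenced libraries WT 1 to 4, and WT 5 lay among them. The log2 fold change was -0.55 (SE 0.22, adjusted p 0.421). Without WT 5 it was -0.69 with an adjusted p of 0.0436, while against WT 5 alone it was 0.19 with an adjusted p of 0.999. Median UMIs per cell moved with this difference, and sequencing depth and genotype cannot be told apart without WT 5. WT 5 is also the library with the different cell name prefix, and the part of its origin in this value was not tested.

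Rbpj in pre-HE had WT levels of 42.4, 28.0, 38.9, 43.5 and 51.5 CPM, and Meis1-knockout levels of 94.1, 57.4 and 61.9 CPM. The groups did not overlap, the log2 fold change was 0.83 (SE 0.31, adjusted p 0.507), and the Meis1-knockout values rest on 38 UMIs in all. Hey1 in EHT had WT levels of 17.4, 9.40, 16.7, 20.7 and 15.2 CPM, and Meis1-knockout levels of 32.9, 20.84 and 20.81 CPM. These groups were apart by less than 0.1 CPM, with a log2 fold change of 0.71 (SE 0.27, adjusted p 0.414), and without Meis1-knockout 1 the value was 0.44. The arterial marker genes in EHT summed to 98.5 to 112 CPM in the Meis1-knockout and to 30.1 to 106 CPM in WT. Notch1 in EMP had WT levels of 18.8, 14.4, 11.6, 14.9 and 8.16 CPM, and Meis1-knockout levels of 6.33, 8.75 and 10.3 CPM, a log2 fold change of -0.63 (SE 0.27, adjusted p 0.256) that had an adjusted p of 0.0952 without WT 5 and was 0.09 against WT 5 alone.

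**Figure D4:**
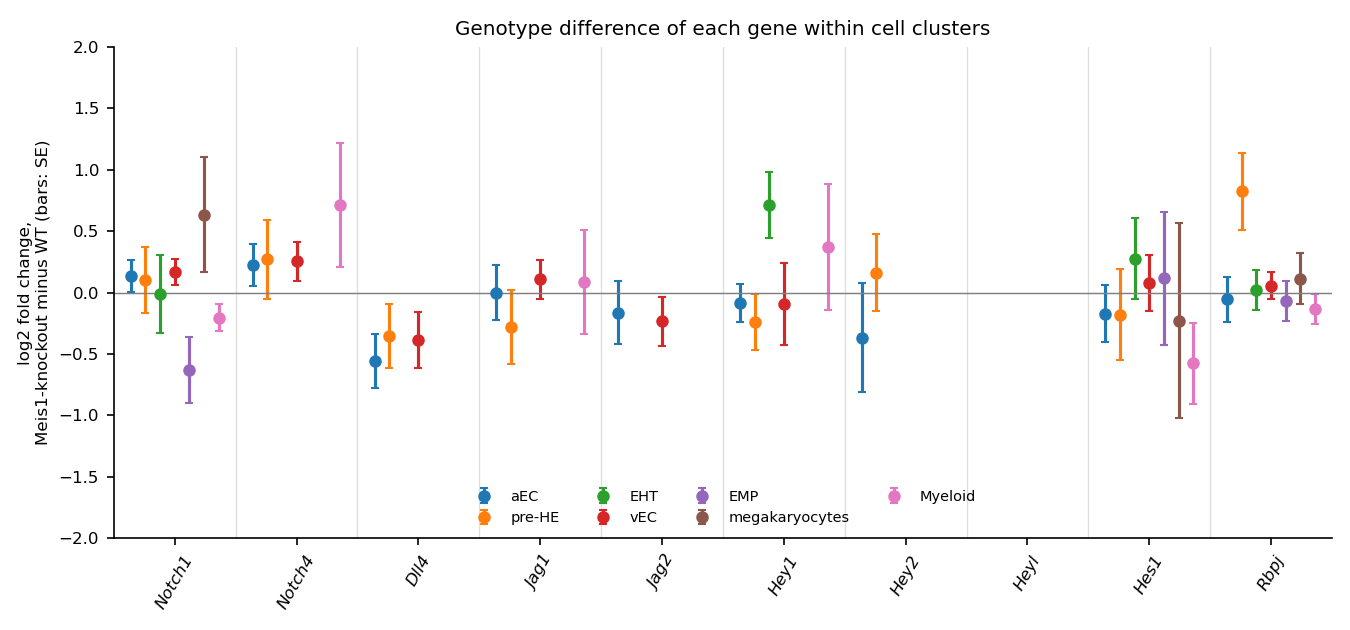
Log2 fold change of Meis1-knockout over WT with its standard error for each gene in 7 cell types (vEC is the sum of its 4 clusters), where a gene without a point did not pass the filter. No difference passed an adjusted p of 0.1, and the points furthest from 0 are Rbpj in pre-HE, Hey1 in EHT and Notch4 in Myeloid cells above it and Notch1 in EMP below it.

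In the cluster most central to the study, the Meis1-knockout values of the other tested genes in pre-HE overlapped the WT range. Notch1 stood at 173, 239 and 115 CPM, Dll4 at 104, 95.7 and 142 CPM and Hey2 at 153, 86.2 and 88.4 CPM in the 3 Meis1-knockout libraries. Log2 fold changes in pre-HE ranged from -0.35 (SE 0.26) for Dll4 to 0.27 (SE 0.32) for Notch4 apart from Rbpj. In counts of 3685 genes simulated for this comparison, edgeR recovered 50.5% of genes changed by 1 on the log2 scale and 97% of those changed by 2. The simulation set the same spread between libraries for all genes and did not take it from these libraries. At that set spread a change of 2-fold or less could be missed, and recovery of the 10 genes at the observed spread was not tested.

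EHT cells of each library were also split at the median count of an antibody tag into equal low and high groups, and the tags took no part in the clustering. WT 4 has no tag counts, and the split covers 7 libraries. Raw tag counts were used, with ties ordered by the tag's share of all tags but CD44 and then by cell name. The number of ties is not given here. CD43 is a surface protein gained as cells leave the endothelium for blood, and the CD43-low group holds the cells with the lowest counts of its tag. Of the 10 genes 4 passed the filter and 3 were called, against 12.6% of all genes. Hey1 stood at 40.4, 19.9, 31.9 and 31.3 CPM in the low group of WT 1, 2, 3 and 5 and at 77.4, 40.9 and 34.7 CPM in that of Meis1-knockout 1 to 3. In the high group it stood at 3.12, 2.20, 1.59 and 2.875 CPM in WT and at 3.35, 3.97 and 9.91 CPM in the Meis1-knockout, so the groups did not overlap. The log2 fold change was -3.45 (SE 0.30, adjusted p 4.08e-10), lower in the high group in 7 of 7 libraries.

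Hes1 stood at 54.4 ± 29.9 CPM in the CD43-low group (SD, n = 7) and at 23.1 ± 14.5 CPM in the high group, a log2 fold change of -1.18 (SE 0.27, adjusted p 0.00334) in 6 of 7 libraries, WT 5 being the exception. Rbpj went the other way, at 50.85 ± 7.93 and 69.6 ± 10.2 CPM, with a log2 fold change of 0.38 (SE 0.13, adjusted p 0.0729) that was higher in the high group in 7 of 7 libraries. That call was lost without each of WT 1, WT 2, WT 3 and the 3 Meis1-knockout libraries in turn (adjusted p 0.104 to 0.159) and by DESeq2 (adjusted p 0.45). Notch1, at -0.38 (SE 0.23), had an adjusted p of 0.353, or of 0.0932 without WT 5. Dll4 did not pass the filter and had 37 UMIs in the low and 7 in the high groups, with the low group above the high group in 7 of 7 libraries. In WT the 5 endothelial genes summed to 353.5 to 437 CPM in the low and 170 to 310.5 CPM in the high group, and the 5 arterial genes to 55.2 to 203 and 7.02 to 33.55 CPM, and in the Meis1-knockout the latter summed to 142 to 232 and 15.9 to 64.4 CPM. Cells of the low group also had fewer UMIs in every library. The part of these in the Hey1 and Hes1 differences was not tested.

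**Figure D5:**
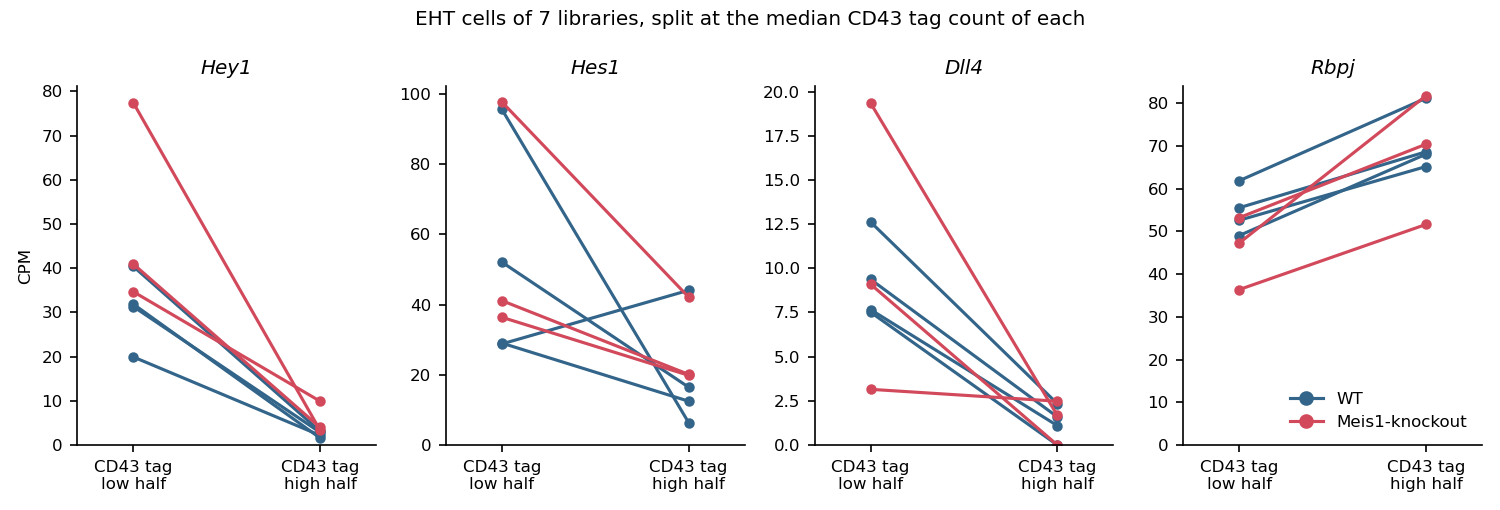
CPM of Hey1, Hes1, Dll4 and Rbpj in EHT cells of the low and the high group by CD43 tag count, with a line for each of 7 libraries (4 WT in blue, 3 Meis1-knockout in red). Hey1 and Dll4 are lower in the high group in 7 libraries, Hes1 in 6, and Rbpj is higher in the high group in 7.

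Groups by the CD117 tag, the stem cell factor receptor, gave 1 call among the same 4 genes, against 0.733% of all genes. Hey1 was lower in the CD117-high group in 7 of 7 libraries, at 11.5 ± 5.57 CPM against 29.1 ± 12.8 CPM (SD, n = 7), with a log2 fold change of -1.47 (SE 0.27, adjusted p 0.00195). The call was lost without the library block (adjusted p 0.154), and with the lowest set against the highest tertile 0 of the 10 genes were called. Hey1 is not among the values recorded as losing the threshold with tertiles, so that 0 is not read as a failed test of Hey1. The 5 arterial genes summed to 30.2 to 173 CPM in the CD117-low and 14.3 to 40.7 CPM in the CD117-high group of WT. Cells of the CD117-low group also had fewer UMIs in every library, by the median cell. The part of arterial genes and of depth in the Hey1 difference was not tested. Groups by the CD45 tag, a marker of mature blood cells, gave 0 calls by edgeR or DESeq2, with 1 gene (Notch1) at an unadjusted p under 0.05 and 0.0832% of all genes called.

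A list of 42 other Notch pathway genes, receptors, ligands, sugar-adding modifiers, proteases, turnover factors, nuclear partners and targets, gives the setting of these values. Efnb2 of this list is also among the 5 arterial markers above. At the step from aEC to pre-HE in WT, 27 of the 42 passed the filter and 15 were called, 11 higher and 4 lower, beside 42.1% of all genes called and 21.1% in each direction, with a median log2 fold change of 0.38 against 0.01 over all genes. The largest rises were those of Notch3, a receptor best known from mural cells, by 3.11 (SE 0.36) to 23.4 ± 7.09 CPM, and of the arterial ephrin ligand Efnb2 by 2.39 (SE 0.13). Psen2, a catalytic subunit of gamma-secretase, rose by 2.15 (SE 0.28), and Nrarp, a feedback inhibitor that is itself a Notch target, by 1.34 (SE 0.14). Those that fell were the coactivator Maml3, by 0.79 on the log2 scale, the modifier Lfng, by 0.71, the gamma-secretase subunit Aph1a, by 0.70, and Snw1, by 0.31. In the Meis1-knockout 23 passed and 5 were called, all higher, a share close to the 21.8% of all genes called, among them Efnb2 at 2.41, Psen2 at 1.83 and Nrarp at 1.16.

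From pre-HE to EHT in WT, 15 of 27 tested list genes were called, 3 higher and 12 lower, a share below the 61.6% of all genes called, with a median of -0.29 against 0.04 over all genes. Efnb2 fell by 4.46 (SE 0.16), Nrarp by 2.72 (SE 0.16), Notch3 by 2.72 (SE 0.39) and the Notch antagonist Numb by 1.71 (SE 0.21), and Snw1 rose by 0.92, Maml3 by 0.62 and Hes6 by 0.48. Nrarp stood at 52.1 ± 10.8, 143 ± 21.8 and 20.8 ± 2.95 CPM in aEC, pre-HE and EHT of WT (SD, n = 5), the order of Hey1. In the Meis1-knockout 7 of 16 were called at this step, beside 50.2% of all genes, with Efnb2 at -4.15, Nrarp at -1.69, Numb at -1.58 and Aph1a at -1.21 among the 6 lower ones and Hes6 at 1.10 the single higher one. In the CD43 groups of EHT, 1 of 20 tested list genes was called, beside 12.6% of all genes, namely Nrarp, lower in the high group by a log2 fold change of -1.38 (SE 0.23, adjusted p 9.7e-05).

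Between aEC and vEC in WT, with Efnb2 left out because it is in the arterial score, 26 of 35 tested list genes were called, 16 higher and 10 lower in aEC, beside 59.7% of all genes called, 29.2% higher and 30.5% lower, with a median of 0.17 against -0.01 over all genes. The modifier Lfng was higher in aEC by 1.82 (SE 0.13), Dtx4 by 1.49 (SE 0.21), Aph1b by 1.24 (SE 0.23) and Nrarp by 0.90 (SE 0.09). The ligand Dll1 was lower in aEC, by a log2 fold change of -2.04 (SE 0.20), at 1.97 ± 0.969 CPM against 9.10 ± 1.93 CPM in vEC, opposite in direction to the 3 ligands above. Notch2, at -0.83 (SE 0.24), Spen, at -0.66 (SE 0.10), and Notch3, at -0.57 (SE 0.25), were also lower.

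Last, the genes whose mean WT log2(CPM + 1) over the 10 clusters was most like that of each member were listed, among 7850 genes with at least 20 CPM in some cluster, as a description over 10 points that share libraries and an endothelial against blood contrast. Hey1 was most like Gja4, an arterial connexin (Pearson r 0.965), and Egfl8 (0.961), and Hey2 most like Htra1 (0.987) and Sorbs2 (0.98). Dll4 was most like Sept4 (0.99) and Prnp (0.976), and Jag2 most like Sept4 (0.979) and Dll4 itself (0.977). Notch1 was most like Zscan26 (0.99) and Wwc2 (0.987), Notch4 most like Tnks1bp1 (0.992) and Igfbp3 (0.992), and Jag1 most like Bsg (0.984) and Sparcl1 (0.983), each of them highest in pre-HE. Hes1 was most like Bambi and Agap3 (0.988 for both), which are highest in aEC. Rbpj was most like the Myeloid genes Ccl4 (0.954) and Wfdc17 (0.95), and Heyl, with too few UMIs for a pattern to be read, most like Tmem214 (0.988).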

How the data were processed

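CD31+ cells of the AGM were profiled by CITE-seq with a 3′ kit (10x, version 3). According to the submitters' processing notes the authors used Cell Ranger 3.0.2 and mm10, and by their methods kept cells with over 2000 genes and under 10% mitochondrial reads, integrated the libraries and named clusters by hand. The authors deposited raw UMI counts per gene and cell, antibody tag counts, and a cell annotation, from which library, genotype and cluster were taken.

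Counts were summed per library and cluster (at least 10 cells), or per library and low or high group of EHT cells, split at the median tag count. Sums were tested across all genes with edgeR 4.0.16 (filterByExpr, TMM, quasi-likelihood test, R 4.3.3), with library as a block between clusters or tag groups and without it between genotypes, at a Benjamini-Hochberg adjusted p under 0.1. DESeq2 1.42.0 was an alternative. Doublets were marked with Scrublet in scanpy 1.11.5 (83 cells, 0.55%) and kept in the main counts. The test was tested on simulated data, with the same spread between libraries set for all genes. Further alternatives were RLE scaling, Bonferroni adjustment, no filter on low counts, thinning to 5000 UMIs, other cell minimums, leaving out each library, a replicate block, WT 5 alone for WT, and a covariate of median UMIs.

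The members and lists were chosen with earlier results of these data known. All 10 genes were read in every comparison. Of the 42 other pathway genes up to 4 called in each direction are named, by size of change, at both steps, between aEC and vEC in WT, for the CD43 split and between genotypes. For aEC against vEC in the Meis1-knockout and against single vEC clusters no list gene is named. For each member up to 2 genes of like pattern are named. At the Meis1-knockout step from aEC to pre-HE 1 gene that this rule would name is not reported here. Libraries are separate pools of embryos. Intervals and limits from a count of 0 (3 counts of the total) cover counting error only. Replicate numbers 1 to 3 occur in both genotypes, and correlations of their deviations ranged from 0.036 to 0.36 in aEC, -0.021 to 0.139 in EHT, 0.117 to 0.513 in vEC and -0.177 to 0.307 in Myeloid cells. All 3 were over 0.1 in vEC only, so the numbers were not taken to pair the libraries.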

Additional observations from a re-analysis of the deposited data

Results flagged for a closer look

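Among 57 groups of WT levels examined for a library that stands apart, 1 was found. Jag1 in aEC stood at 68.7 CPM in WT 1 against 41.1 to 48.2 CPM in the other 4 WT libraries, a gap of 0.746 of the whole range. Chance marks about 1 in 20 such groups.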

How the results depend on the processing

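Among 2564 alternative values for the 158 results of a single gene in a comparison, 2490 kept their call or moved by less than the spread between replicates, 31 lost the threshold, 12 passed it and 31 values without a test moved by more, while 0 reversed a called direction. With Bonferroni adjustment 5 genes were called between pre-HE and aEC in WT and 1 between CD43 groups. Thinning to 5000 UMIs left 2 calls each between aEC and vEC_1, vEC_2 and vEC_3, where no gene is recorded as tested and losing the threshold. For CD117 groups 0 were called with the lowest against the highest tertile or without the replicate block, and only the latter is recorded as a lost threshold of Hey1. The share of all genes called in these settings is not given here.

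Between genotypes, leaving out each library in turn gave 0 to 1 calls in aEC (Dll4 without WT 5) and 0 to 1 in EMP (Notch1 without WT 5). With the replicate block over replicates 1 to 3, 1 gene each was called in aEC (Dll4, -0.69, adjusted p 0.0083), vEC (Notch4, 0.49, adjusted p 0.0131) and Myeloid cells (Notch4, 1.61, adjusted p 0.0906), and the same 6 libraries without the block, an alternative chosen after seeing the data, also gave 1 call each there. The replicate numbers were not taken as a pairing, although in vEC every pair's correlation was over 0.1. Median UMIs per cell as a covariate gave 0.38 for Dll4 in aEC (adjusted p 0.999). The share of all genes called in each of these fits is not given here, so the single calls have no background beside them. The cause of these changes was not tested.

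No value was obtained for CD117 groups with DESeq2, which gave Hey1 no adjusted p, or for the 3 tag splits after thinning, where 0 members passed the filter. Counts were low for some values, with 28 to 57 UMIs for Notch4, Dll4, Jag1 and Jag2 in WT EHT cells and 524071 UMIs over all genes in Meis1-knockout pre-HE.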

Other observations

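Among the 42 other pathway genes, 5 differed between genotypes in blood clusters by edgeR's quasi-likelihood test. In Myeloid cells, where 35 passed the filter and 3.26% of all genes were called, Lfng (log2 fold change 0.88, SE 0.17, adjusted p 0.0321) and Aph1b (1.10, SE 0.24, adjusted p 0.0538) were higher in the Meis1-knockout and Neurl1a, a ligand-endocytosis factor, was lower (-1.32, SE 0.31, adjusted p 0.064). In EMP, where 4.74% were called, Psen2 was higher (0.70, SE 0.18, adjusted p 0.0738). In megakaryocytes, where 4 WT libraries were set against 3 and 0.206% were called, Nrarp was lower (-3.69, SE 0.60, adjusted p 0.0514). In aEC, pre-HE, EHT and vEC, 0 of the list were called. Lfng means were also higher in the Meis1-knockout in aEC (29.9 ± 4.03 against 19.5 ± 2.47 CPM) and vEC (8.70 ± 1.29 against 5.60 ± 0.791 CPM). Median UMIs per cell in WT and Meis1-knockout were 39173 and 19237 in Myeloid cells, 46035.5 and 17100 in EMP, and 24314.5 and 15431 in megakaryocytes. The part of this depth difference in the 5 calls was not tested.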
